A study of Mus musculus with 28 samples.

Results

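Secreted inhibitors of Wnt signalling were followed in O9-1 cells, a mouse line of cranial neural crest cells, the embryonic source of most facial bone and cartilage. The 10 genes (Dkk1, Dkk2, Dkk3, Sfrp1, Sfrp2, Sfrp4, Frzb, Wif1, Notum and Sost) were found by symbol among the 54429 genes of a table of raw read counts. The set was put together with these libraries in view, and Dkk2 and Notum were chosen by their own read counts, which stand out in single comparisons. Differences of Dkk2 and Notum between groups are therefore given as a description, without a test. The other 8 genes were tested within fits over all genes.

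RNA was sequenced from 28 libraries in 8 groups, with 4 libraries in each group kept at 21% O2 (normoxic) and 3 in each group kept at 0.5% O2 (hypoxic). Proliferating cells were kept in medium conditioned by STO fibroblasts with 15% fetal calf serum, 25 ng/ml bFGF and 5 ng/ml LIF. Chondrocyte cultures spent 3 days in the osteoblast medium and then 7 days as micromasses on Matrigel, in 5% serum with insulin-transferrin-selenium, 0.1 µM dexamethasone, 10 ng/ml TGF-beta3 and 50 ng/ml BMP-2. Osteoblast cultures spent 10 days in 10% serum with 10 mM beta-glycerophosphate, 0.1 µM dexamethasone and 100 ng/ml BMP-2, and smooth muscle cultures 3 days in 10% serum with no growth factor named. Each medium was used at both oxygen levels. The study asked how oxygen affects the differentiation of these cells. All libraries come from 1 cell line, and the labels do not say that replicates were separate cultures, so p-values measure only the spread between these samples, which may be technical.

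Wnt proteins carry a lipid that they need in order to bind Frizzled receptors, and with the co-receptors Lrp5 and Lrp6 they stabilise beta-catenin, which switches on target genes such as Axin2. Secreted inhibitors act at different points of this step. Dkk1 and Dkk2 bind Lrp5 and Lrp6, together with Kremen proteins, and sclerostin, the product of Sost, binds the same co-receptors with the help of Lrp4. Sfrp1, Sfrp2, Sfrp4, Frzb (also called sFRP3) and Wif1 bind Wnt proteins themselves, and Notum is an enzyme that removes the lipid from Wnt. In the skeleton, Wnt signalling promotes bone formation and restrains cartilage formation, and Frzb and Wif1 are known from cartilage and its surroundings.

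Promoters are shown for 3 genes with different patterns over the culture states, whose matched window lies outside the gene model in whole or in large part: Dkk2, which was high in proliferating cells, Wif1, which was high in chondrocyte and hypoxic osteoblast cultures, and Sfrp2, whose few reads came almost wholly from normoxic differentiated cultures. RefSeq promoter sequences on GRCm38.p6, the assembly that mm10 names, matched 6 of the 10 genes (Dkk1, Dkk2, Sfrp2, Frzb, Wif1 and Sost). Each line runs 5′ to 3′ on the gene's strand, the plus strand in all 3 cases. It covers the 250 bases before the RefSeq start site (chr3:132085042-132085291 for Dkk2, chr3:83766071-83766320 for Sfrp2), less, for Wif1, those that the GENCODE gene model already counts as the gene (206 bases remain, chr10:121033754-121033959). Capitals mark matches to the letters searched.
Dkk2: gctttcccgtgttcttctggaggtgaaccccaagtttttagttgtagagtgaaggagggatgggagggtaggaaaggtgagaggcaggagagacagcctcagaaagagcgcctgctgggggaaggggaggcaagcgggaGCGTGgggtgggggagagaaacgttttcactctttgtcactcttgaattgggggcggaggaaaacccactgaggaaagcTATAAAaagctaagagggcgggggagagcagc
Wif1: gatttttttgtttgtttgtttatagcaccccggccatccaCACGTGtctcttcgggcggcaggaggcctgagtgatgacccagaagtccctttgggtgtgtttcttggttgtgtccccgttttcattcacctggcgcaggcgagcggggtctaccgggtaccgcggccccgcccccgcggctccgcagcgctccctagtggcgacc
Sfrp2: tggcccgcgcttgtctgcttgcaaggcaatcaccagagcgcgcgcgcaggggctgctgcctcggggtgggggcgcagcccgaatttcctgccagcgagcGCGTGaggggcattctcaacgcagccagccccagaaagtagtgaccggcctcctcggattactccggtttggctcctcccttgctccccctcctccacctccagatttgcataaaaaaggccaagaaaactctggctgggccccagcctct
The search took the hypoxia response element cores ACGTG and GCGTG and the TCF/LEF cores CTTTGAT and CTTTGTT on both strands, and TATAAA on the gene's own strand. Dkk2 holds GCGTG at -111 to -107 and TATAAA at -32 to -27, counted back from the start site. Sfrp2 holds GCGTG at -151 to -147. In Wif1, ACGTG on both strands falls within a single CACGTG, at -210 to -205, letters that are also an E-box. The 3 shown are the only ones of the 6 matched that hold a hypoxia response element core. Of those not shown, Dkk1 holds CTTTGTT at -98 to -92 and TATAAA at -54 to -49, and Frzb and Sost hold no match. Among 32851 mouse promoters of the same 250 bases, 38.6% hold a hypoxia response element core, 6.02% hold CACGTG, 8.06% hold a TCF/LEF core and 7.59% hold TATAAA. A match is a run of letters and not a shown binding site.

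Library totals ran from 19869271 to 64693346 counts. Levels are CPM, counts per 1000000 of a library's total, scaled by TMM, a factor that aligns the bulk of genes between libraries. A list of 10 hypoxia response genes summed to 2756 to 4919 CPM in hypoxic libraries and to 256 to 1374 CPM in normoxic ones. Smooth muscle markers went against the label in the 3 libraries labelled smooth muscle at 0.5% O2, called hypoxic smooth muscle here after their label, where the 6 genes summed to 92.3 to 116 CPM, against 3646 to 4083 in normoxic smooth muscle and 92.1 to 99.2 in normoxic proliferating cells. In those 3 libraries Myocd was at 0, mitochondrial ribosomal RNA took 11.6 to 13.3% of counts (at most 0.0889% elsewhere) and TMM factors were 0.518 to 0.545 (0.896 to 1.26 elsewhere). They also held 32.5 to 36.6 CPM of 4 macrophage markers, nearly all of it Cd68, against at most 5.90 in any other library, while Adgre1 was at 0. The sum of 7 osteoblast genes was 38563 to 51611 CPM in chondrocyte cultures, most of it Col1a1, against 6787 to 15812 CPM in osteoblast cultures. Col1a1, Sp7, Ibsp and Alpl had higher means in both chondrocyte groups than in either osteoblast group (Sp7 at 169 and 236 CPM against 12.3 and 97.4), and Runx2 and Spp1 were highest in hypoxic osteoblast cultures. The cartilage list was highest in the chondrocyte cultures, at 5490 to 15014 CPM, against 31.5 to 3000 CPM in all other groups. The summed level of 12 cell cycle genes did not overlap between oxygen levels in any culture. In proliferating cells, where 11 of the 12 fell at 0.5% O2 (32.3% of all genes fell), it was 2168 to 2603 CPM at 21% O2 and 1636 to 1650 CPM at 0.5% O2, and in chondrocyte cultures 525 to 835 and 408 to 477 CPM. The hypoxic libraries were the higher ones in osteoblast cultures, at 360 to 451 against 114 to 197 CPM. In smooth muscle they were higher with TMM scaling, at 670 to 722 against 490 to 565 CPM, and lower with library-size scaling, at 347 to 386 against 607 to 704 CPM, a check chosen after seeing the data. Its part in the levels of the inhibitors was not tested. Replicate 4 of normoxic osteoblast stood apart from replicates 1 to 3, and the values of inhibitors that turn on it are given with and without it. Scaling by library size alone moved the median log2 change of all genes by -1.37 in hypoxic against normoxic smooth muscle and by -1.28 in hypoxic smooth muscle against hypoxic proliferating cells, and the share of called genes that were higher fell from 46.8% to 15.6% and from 48.3% to 15.0%. It moved the median difference between oxygen levels of the smooth muscle change by -1.33, with that share falling from 49.6% to 16.6%. In the other comparisons the shift was at most 0.35 in size, and in 5 of them the share fell by over 10 percentage points: from 50.3% to 34.7% in chondrocyte against proliferating cells at 21% O2, from 50.2% to 31.8% at 0.5% O2, from 50.8% to 38.2% in osteoblast against proliferating cells at 0.5% O2, and between oxygen levels from 46.9% to 31.8% in chondrocyte and from 49.6% to 36.9% in osteoblast cultures.

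The mix of inhibitors differed between the groups, although some groups had the same main genes. Compared per kilobase of exon, so that genes of different length can be set side by side, Dkk2 made up 83.4% of the summed level of all 10 genes in normoxic and 80.9% in hypoxic proliferating cells. Frzb (34.2%), Dkk3 (31.0%) and Wif1 (27.2%) shared the sum in normoxic chondrocyte cultures. With 0.5% O2 the main chondrocyte genes were Wif1 (32.2%), Dkk3 (31.9%) and Notum (24.1%). Wif1 and Dkk3 lay within their spread there (21.7 ± 5.08 and 21.5 ± 2.32 CPM per kilobase, SD). Normoxic osteoblast cultures held mainly Dkk3 (78.8%) and Sfrp1 (15.6%), and hypoxic ones Dkk3 (55.4%), Notum (29.4%) and Wif1 (13.7%). Dkk3 (51.8%) and Sfrp1 (39.4%) made up most of the sum in normoxic smooth muscle, and Dkk3 (57.9%) and Dkk2 (38.9%) in the hypoxic libraries so labelled. The summed level itself was 233 CPM per kilobase in normoxic and 387 in hypoxic proliferating cells, 82.8 and 67.3 in chondrocyte, 267 and 213 in osteoblast, and 234 and 73.6 in smooth muscle cultures. These sums use TMM scaling. With library-size scaling the 2 smooth muscle groups lie further apart, as for Dkk3 (509 CPM normoxic and 76.2 hypoxic, against 407 and 143 with TMM). In bulk RNA, fewer cells of a type and less RNA per cell cannot be told apart.

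**Figure D1:**
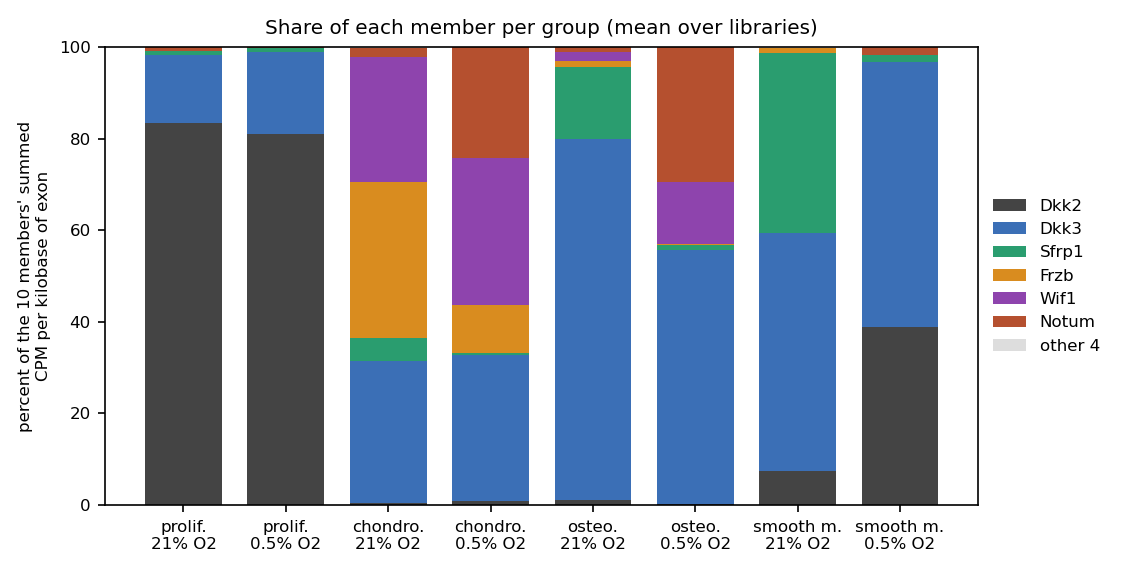
Stacked bars give the share of each gene in the summed CPM per kilobase of exon of the 10 inhibitors (vertical axis, percent), from the mean level of each of the 8 groups (horizontal axis). Dkk2 fills 83.4% and 80.9% of the proliferating bars and under 2% of the chondrocyte and osteoblast bars, where Dkk3, Frzb, Wif1, Sfrp1 and Notum make up most of the share.

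Dkk2, on the plus strand at chr3:132085292-132180304, had most of its reads in proliferating cells. Its level was 739, 745, 748 and 650 CPM in the 4 normoxic proliferating libraries and 1155, 1123 and 1206 CPM in the 3 hypoxic ones. Normoxic chondrocyte libraries held 1.52, 1.21, 1.06 and 1.89 CPM, and hypoxic ones 2.43, 1.69 and 2.95 CPM. Every chondrocyte library was thus far below every proliferating library, at either oxygen level. The mean was 494-fold lower in normoxic chondrocyte than in normoxic proliferating cells (fitted log2 change -8.95, SE 0.13, n = 4 and 4) and 486-fold lower at 0.5% O2 (-8.93, SE 0.14, n = 3 and 3). In osteoblast cultures Dkk2 stood at 13.1, 14.3, 11.8 and 5.78 CPM with 21% O2 and at 2.99, 2.21 and 2.00 CPM with 0.5% O2, with replicate 4 lowest among the normoxic libraries and no overlap between the oxygen levels. Osteoblast cultures were 64.7-fold below proliferating cells at 21% O2 and 485-fold below them at 0.5% O2. Smooth muscle cultures kept more, with 63.5, 62.7, 67.5 and 67.3 CPM in normoxic libraries and 92.4, 95.8 and 130 CPM in hypoxic ones.

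Between oxygen levels, Dkk2 differed in opposite directions by culture state. Its mean was 1.60-fold higher at 0.5% O2 in proliferating cells (log2 change 0.68, SE 0.05) and 4.66-fold lower in osteoblast cultures (-2.22, SE 0.32, and -2.44 without replicate 4). Chondrocyte libraries of the 2 oxygen levels overlapped, at a log2 difference of 0.72 (SE 0.29). In smooth muscle the sign hung on the scaling, since Dkk2 was higher in the hypoxic libraries after TMM scaling (log2 change 0.84) and lower with library-size scaling (-0.53). Ranked by mean, the order was hypoxic proliferating, normoxic proliferating, hypoxic smooth muscle, normoxic smooth muscle and normoxic osteoblast, with no overlap between neighbours, and then hypoxic osteoblast and the 2 chondrocyte groups, which overlapped. Over the 8 group means, on the log2(CPM + 1) scale, the 5 genes most like Dkk2 among 11108 compared were Gap43 (r = 0.992), Eml5 (0.988), Chst1 (0.988), Ptchd1 (0.987) and Gchfr (0.984). Gap43, which encodes a growth-cone protein of neurons, averaged 111 CPM in normoxic and 217 CPM in hypoxic proliferating cells and 1.31 CPM in normoxic chondrocyte cultures. These correlations describe 8 points that share their libraries.

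**Figure D2:**
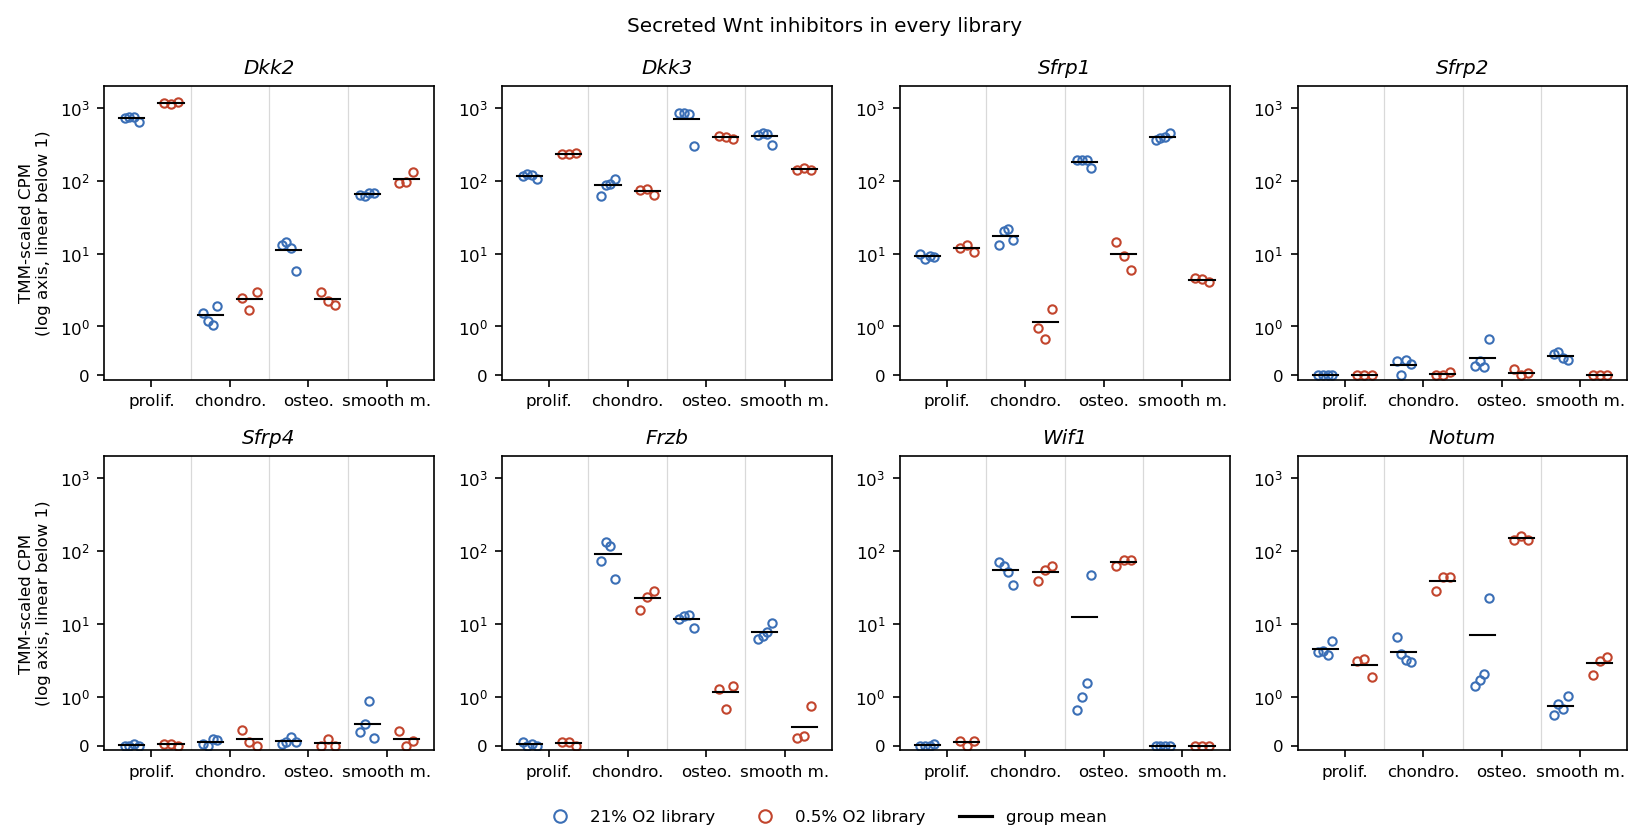
Each circle is 1 library (blue 21% O2, red 0.5% O2), the vertical axis is its TMM-scaled CPM on a log axis that turns linear below 1, and bars are group means, for 8 of the 10 inhibitors in the 4 culture states. Dkk2 is highest in proliferating cells, Sfrp1 and Frzb sit lower at 0.5% O2 in each differentiated culture, and Notum reaches 164 CPM in hypoxic osteoblast cultures.

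The 2 other inhibitors that act on Lrp5 and Lrp6 gave almost no reads. Dkk1 (minus strand, chr19:30545863-30549665) had 1 count in all, in a single normoxic chondrocyte library. A count of 0 allows up to 3 counts over a group, which is 0.0171 CPM in normoxic proliferating cells, the most deeply sequenced group, and 0.0855 CPM in hypoxic smooth muscle, where the bound is weakest. Sost (minus strand, chr11:101962458-101967015), a product of osteocytes, had 16 counts, of which 14 came from replicate 4 of normoxic osteoblast (0.455 CPM). Neither gene passed the filter on low counts in any comparison.

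Dkk3, a divergent member of the Dickkopf family whose effect on Wnt signalling varies with the cell type, had 1538 counts or more in each of the 28 libraries. It lies on the minus strand at chr7:112116017-112159057. Normoxic proliferating libraries held 116, 125, 120 and 105 CPM and hypoxic ones 230, 233 and 241 CPM, a 2.00-fold rise at 0.5% O2 without overlap (log2 change 1.00, SE 0.05, edgeR adjusted p = 2.62e-09). In osteoblast cultures it stood at 860, 841, 829 and 301 CPM with 21% O2 and at 412, 402 and 372 CPM with 0.5% O2. Replicates 1 to 3 were above, and replicate 4 below, every hypoxic library. In smooth muscle it stood at 426, 446, 444 and 312 CPM with 21% O2 and at 140, 149 and 139 CPM with 0.5% O2, with no overlap. The chondrocyte groups had the lowest means, with libraries at 61.1, 88.6, 89.8 and 106 CPM (21% O2) and 75.6, 77.6 and 63.2 CPM (0.5% O2), and overlapped between oxygen levels and, at 21% O2, with proliferating cells.

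From proliferating cells at 21% O2, Dkk3 rose 6.01-fold in osteoblast (log2 change 2.59, SE 0.30, edgeR adjusted p = 2.56e-05) and 3.41-fold in smooth muscle cultures (1.77, SE 0.11, adjusted p = 9.50e-09). It fell in chondrocyte cultures by 0.41 on the log2 scale (SE 0.14, adjusted p = 0.0242), a call that was lost without normoxic proliferating replicate 2 (adjusted p = 0.0555) or replicate 3 (0.0510), without the filter on low counts (0.0596) and with all 8 groups in 1 fit (0.0575). At 0.5% O2 the fall in chondrocyte cultures was larger (log2 change -1.70, SE 0.08, adjusted p = 4.51e-10), the rise in osteoblast cultures smaller (0.75, SE 0.07, adjusted p = 6.57e-08), and smooth muscle libraries were lower than proliferating ones (-0.54, SE 0.07, adjusted p = 3.69e-05, and -1.82 with library-size scaling). The difference between these changes at the 2 oxygen levels passed the test in each culture. It was -1.27 for chondrocyte (SE 0.20, adjusted p = 1.51e-04), -1.79 for osteoblast (SE 0.37, adjusted p = 1.37e-03) and -2.33 for smooth muscle (SE 0.14, adjusted p = 1.50e-12, and -3.67 with library-size scaling). All 3 differences share the proliferating libraries, so they are not independent of each other.

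The direct comparison of oxygen levels for Dkk3 was called in smooth muscle, where it fell by 1.37 on the log2 scale (SE 0.11, edgeR adjusted p = 4.02e-08, and by 2.74 with library-size scaling), but not in chondrocyte or osteoblast cultures. In chondrocyte cultures the log2 difference was -0.28 (SE 0.17, adjusted p = 0.306), and it was called without normoxic chondrocyte replicate 1 (-0.41, adjusted p = 0.0109). In osteoblast cultures it was -0.83 (SE 0.34, adjusted p = 0.0679), and without replicate 4 of the normoxic group it was -1.09 (adjusted p = 6.83e-09). It was also called lower there with library-size scaling (adjusted p = 0.0351), all 8 groups in 1 fit (5.11e-03), DESeq2 (0.0107) and a replicate block, which leaves out that replicate (5.65e-10).

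Among the inhibitors that bind Wnt proteins, Sfrp1 (plus strand, chr8:23411502-23449632) had the largest fitted fall at low oxygen among the tested inhibitors. In normoxic smooth muscle it stood at 368, 389, 402 and 452 CPM, and in the hypoxic libraries at 4.69, 4.47 and 4.03 CPM. Osteoblast libraries held 195, 193, 194 and 150 CPM with 21% O2 and 14.3, 9.29 and 6.03 CPM with 0.5% O2. In chondrocyte cultures it stood at 13.3, 20.4, 21.7 and 15.2 CPM and at 0.973, 0.746 and 1.72 CPM. In all 3 differentiated cultures every hypoxic library lay below every normoxic one. Proliferating cells differed by a small step upward, from 9.98, 8.48, 9.30 and 8.98 CPM to 12.03, 13.3 and 10.5 CPM.

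At 0.5% O2 Sfrp1 was 82.8-fold lower in smooth muscle (log2 change -6.37, SE 0.12, edgeR adjusted p = 4.99e-15), 18.5-fold lower in osteoblast (-4.21, SE 0.29, adjusted p = 9.58e-06) and 15.3-fold lower in chondrocyte cultures (-3.94, SE 0.29, adjusted p = 1.80e-05). With library-size scaling the smooth muscle value was -7.74. In proliferating cells it rose 1.297-fold (0.37, SE 0.11, adjusted p = 9.81e-03), a call that was lost without hypoxic proliferating replicate 2 (adjusted p = 0.0662) and with all 8 groups in 1 fit (0.214). From proliferating cells at 21% O2, Sfrp1 rose 1.96-fold in chondrocyte, 19.8-fold in osteoblast and 43.0-fold in smooth muscle cultures (log2 changes 0.97, 4.30 and 5.43, adjusted p = 8.78e-05, 1.38e-09 and 1.66e-16). At 0.5% O2 it fell by 3.36 in chondrocyte and by 1.26 in smooth muscle cultures on the log2 scale (adjusted p = 5.80e-08 and 1.10e-04), the latter by 2.54 with library-size scaling. In osteoblast cultures the log2 change at 0.5% O2 was -0.28 (SE 0.25, adjusted p = 0.335), and without hypoxic osteoblast replicate 1 it was -0.63 (adjusted p = 3.76e-03). The change with differentiation was lower at 0.5% O2 in each culture, by a log2 difference of -4.30 for chondrocyte (SE 0.31, adjusted p = 1.45e-08), -4.54 for osteoblast (SE 0.30, adjusted p = 4.07e-08) and -6.71 for smooth muscle (SE 0.15, adjusted p = 3.23e-19, and -8.04 with library-size scaling).

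Frzb, on the minus strand at chr2:80411970-80447625, had most of its reads in differentiated cultures. It had 4 counts in the 4 normoxic proliferating libraries together and 4 counts in the 3 hypoxic ones. Normoxic chondrocyte libraries held 73.6, 135, 117 and 41.1 CPM and hypoxic ones 15.8, 23.7 and 28.8 CPM. These groups did not overlap, although the normoxic libraries spread more than 3-fold among themselves. Osteoblast libraries held 11.9, 13.1, 13.4 and 8.80 CPM with 21% O2 and 1.28, 0.760 and 1.43 CPM with 0.5% O2. In smooth muscle it stood at 6.17, 6.92, 7.73 and 10.3 CPM with 21% O2 and at 0.147, 0.194 and 0.805 CPM with 0.5% O2, the latter from 13 counts. Every hypoxic library lay below every normoxic one in these cultures too.

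Against the few counts in normoxic proliferating cells, Frzb was higher by a ratio of 3964 in chondrocyte cultures (95% counting interval 1548 to 14551), 516 in osteoblast (201 to 1895) and 342 in smooth muscle (133 to 1257), with edgeR adjusted p = 1.95e-06, 9.79e-08 and 4.78e-11. At 0.5% O2 the ratios to proliferating cells were 492 (192 to 1807) in chondrocyte and 25.0 (9.43 to 93.5) in osteoblast cultures, with adjusted p = 3.52e-08 and 1.84e-05. In hypoxic smooth muscle the ratio was 8.04 (2.49 to 33.9) on 13 counts, and Frzb did not pass the filter. With library-size scaling its means were 0.204 CPM in hypoxic smooth muscle and 0.0529 CPM in hypoxic proliferating cells. The intervals cover counting error only. Frzb passed the filter in these fits through the differentiated libraries, where it is high. It therefore had to differ, and the p-values against proliferating cells lend no support. Between oxygen levels, Frzb fell by 3.35 on the log2 scale in osteoblast (SE 0.25, adjusted p = 7.90e-06) and by 4.23 in smooth muscle (SE 0.44, adjusted p = 4.50e-07). The smooth muscle value was -5.39 without hypoxic replicate 3, which holds 9 of the 13 counts, and -5.58 with library-size scaling. Frzb passed the filter in that comparison through the normoxic smooth muscle libraries, so it had to differ there too. In chondrocyte cultures it fell by 2.03 (SE 0.50, adjusted p = 0.0373), and this call was lost in 7 of 12 alternatives: without the filter (adjusted p = 0.0655) and in 6 of the 7 fits that left out 1 library (0.0572 to 0.117), all but the one without normoxic chondrocyte replicate 4. Cartilage markers were lower in the same libraries, where 5 of the 7 tested fell at 0.5% O2 and none rose (11.8% and 10.4% of all genes), among them Col2a1 (275 against 3490 CPM) and Acan (625 against 1958 CPM), while Sox9 was not called (161 against 159 CPM). In the same libraries 9 of 12 cell cycle genes, 3 of 3 osteocyte genes and 3 of 7 osteoblast genes fell. Their part in the levels of Sfrp1 and Frzb was not tested.

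Wif1, on the plus strand at chr10:121033960-121100650, had reads in chondrocyte and osteoblast cultures alone beyond a handful elsewhere. Its level was 70.3, 62.9, 51.3 and 33.9 CPM in normoxic chondrocyte libraries and 39.4, 54.8 and 63.7 CPM in hypoxic ones, which overlapped, at a log2 difference of -0.07 (SE 0.28, edgeR adjusted p = 0.894). In normoxic osteoblast libraries it stood at 0.742, 0.998, 1.54 and 46.5 CPM and in hypoxic ones at 62.4, 74.8 and 74.95 CPM. Every normoxic library was below every hypoxic one, with replicates 1 to 3 far below and replicate 4 nearer. The fitted log2 difference was 2.49 (SE 1.44) and missed the threshold (adjusted p = 0.191). Without replicate 4 it was 6.003 (adjusted p = 1.64e-11). It was also called with all 8 groups in 1 fit (adjusted p = 0.0282) and with a replicate block, which leaves out that replicate (6.01, adjusted p = 6.61e-15). All 7 smooth muscle libraries were at 0, which allowed at most 0.0222 CPM at 21% O2 and 0.0855 CPM at 0.5% O2, and proliferating cells had 1 count at 21% O2 and 6 counts at 0.5% O2.

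The counts of Wif1 in chondrocyte cultures were higher than in proliferating cells by a ratio of 759 at 0.5% O2 (95% counting interval 348 to 2069, edgeR adjusted p = 4.98e-08) and 9669 at 21% O2 (1735 to 381949, on 1 count, adjusted p = 5.76e-09). In hypoxic osteoblast cultures the ratio was 1028 (472 to 2803, adjusted p = 1.32e-14). Normoxic osteoblast cultures were also called higher than proliferating cells (adjusted p = 2.93e-03, and 1.28e-06 without replicate 4), at 1523 counts, of which 1432 came from replicate 4. Wif1 passed the filter in each of these fits through the differentiated libraries, where it is high. It therefore had to differ, and these p-values lend no support.

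Sfrp2 (plus strand, chr3:83766321-83774316) and Sfrp4 (plus strand, chr13:19623104-19632994) stayed under 1 CPM in every library. Sfrp2 had no count in any proliferating library, 24, 40 and 53 counts in normoxic chondrocyte, osteoblast and smooth muscle cultures, and 2, 4 and 0 counts in the hypoxic ones. Normoxic smooth muscle libraries held 14, 17, 12 and 10 of these counts and hypoxic smooth muscle libraries none, so that the normoxic level was at least 4.59-fold higher (floor of 3 counts over the group, edgeR adjusted p = 3.93e-03). Without normoxic smooth muscle replicate 1, 2 or 3 it no longer passed the filter. Sfrp2 passed only through the normoxic libraries, so it had to differ and this p-value lends no support. By counting alone, its level was 9.19-fold higher in normoxic than in hypoxic chondrocyte (95% interval 2.28 to 80.2) and 7.30-fold higher in normoxic than in hypoxic osteoblast cultures (2.64 to 28.1). It passed the filter in no other comparison of 2 groups, and 23 of its 40 normoxic osteoblast counts came from replicate 4. Without replicate 4 its normoxic osteoblast mean was 0.209 CPM instead of 0.344, beside 0.0508 CPM in hypoxic osteoblast cultures. Gm26771, which overlaps Sfrp2 on the opposite strand, had 5 counts in all, and with the strand setting not given, reads of the 2 genes cannot be told apart. Sfrp4 had 103 counts, 61 of them in normoxic smooth muscle libraries (9, 16, 31 and 5 counts), against 5 counts in the hypoxic ones, a counting ratio of 3.17 (1.29 to 10.1), and it passed the filter nowhere. With library-size scaling its means were 0.563 CPM in normoxic and 0.0692 CPM in hypoxic smooth muscle.

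Notum lies on the minus strand at chr11:120653788-120661175 and was the inhibitor with the highest gain at 0.5% O2. Its level was 142, 164 and 145 CPM in hypoxic osteoblast libraries, against 1.41, 1.72, 2.09 and 22.8 CPM in normoxic ones. Every hypoxic library was above every normoxic one, and replicate 4 was more than 10-fold above the other normoxic libraries. The mean was 21.2-fold higher with 0.5% O2 (log2 change 4.41, SE 1.08), and without replicate 4 the log2 change was 6.43. In chondrocyte cultures Notum stood at 6.57, 3.86, 3.24 and 3.06 CPM with 21% O2 and at 28.7, 43.7 and 44.7 CPM with 0.5% O2, a 9.16-fold higher mean without overlap (3.20, SE 0.28). The smooth muscle values were 0.627, 0.851, 0.743 and 1.02 CPM and 1.98, 3.11 and 3.58 CPM, a log2 change of 1.96 that was 0.59 with library-size scaling. In proliferating cells it was lower at 0.5% O2, from 4.14, 4.23, 3.801 and 5.79 CPM to 3.09, 3.31 and 1.90 CPM (log2 change -0.70, SE 0.22).

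With differentiation at 0.5% O2, Notum was 54.4-fold higher in osteoblast (log2 change 5.77, SE 0.14) and 14.1-fold higher in chondrocyte cultures (3.82, SE 0.25) than in proliferating cells. At 21% O2 the same changes were 0.65 (SE 0.83) for osteoblast and -0.06 (SE 0.24) for chondrocyte cultures, in which libraries overlapped. Without replicate 4 the osteoblast value was -1.41, so its sign rests on that library. Smooth muscle was 5.62-fold lower than proliferating cells at 21% O2. Only the 2 highest groups in the order of means, hypoxic osteoblast and hypoxic chondrocyte, stood clear of the next group, and the 5 groups that follow overlapped as neighbours down to normoxic smooth muscle, which was lowest and did not overlap the group above it. Hypoxic smooth muscle against hypoxic proliferating cells changed sign with the scaling (log2 difference 0.23, and -1.05 with library-size scaling). The genes most like Notum over the 8 group means were Notumos (r = 0.973), Mlph (0.973), Irf5 (0.946), Slc37a2 (0.935) and Klf6 (0.931). Notumos is annotated on the opposite strand and overlaps Notum. The strand setting of the counting is not given in the sources used here, so reads of these 2 genes cannot be told apart, and Notumos averaged 5.49 CPM in hypoxic osteoblast cultures.

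**Figure D3:**
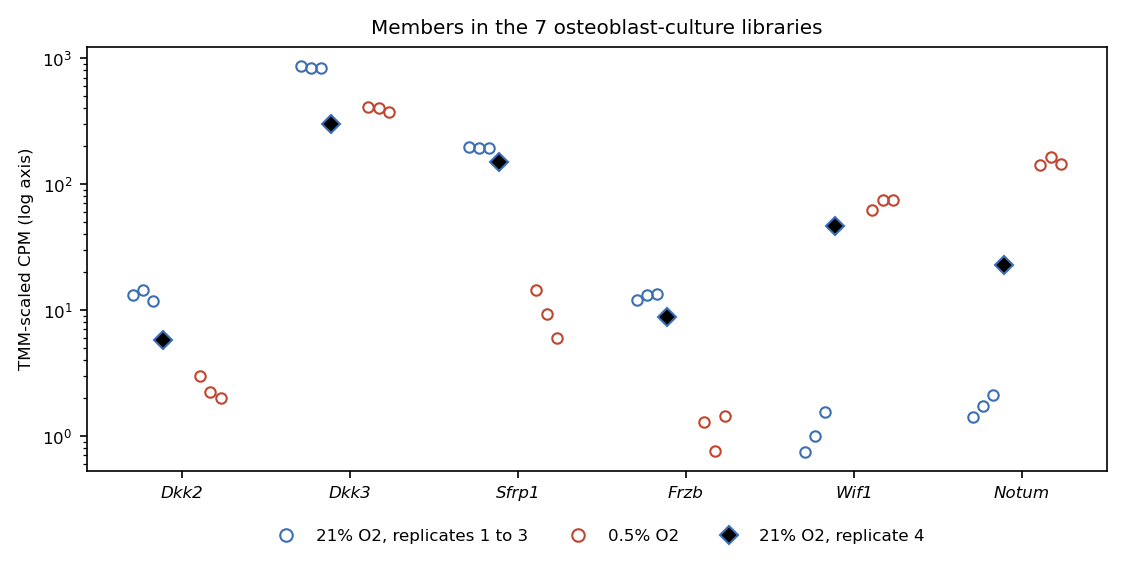
Points are the 7 osteoblast-culture libraries, on a log axis of TMM-scaled CPM, for the 6 inhibitors with the most reads there; the black diamond is replicate 4 of the 4 libraries at 21% O2. Replicate 4 lies below all hypoxic libraries for Dkk3 (301 CPM), between the groups for Dkk2, Wif1 and Notum, and close to its own group for Sfrp1 and Frzb.

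Replicate 4 of normoxic osteoblast did not carry the hypoxia response of the 0.5% O2 libraries. The 10 hypoxia response genes summed to 555 CPM in it, against 668 to 686 CPM in replicates 1 to 3 and 4054 to 4919 CPM in hypoxic osteoblast. Its 7 osteoblast markers summed to 10661 CPM, against 6787 to 6803 CPM in replicates 1 to 3 and 13739 to 15812 CPM in hypoxic osteoblast. Its cartilage (3000 CPM) and smooth muscle markers (5176 CPM) were above those of all other osteoblast libraries. Fat-cell markers moved with oxygen in these cultures, from 9.19 to 17.2 CPM at 21% O2 to 55.9 to 61.0 CPM at 0.5% O2 over 5 genes, almost all of it Pparg and Fabp4, with Adipoq at 0 in every osteoblast library and Cebpa called lower at 0.5% O2 (0.676 against 2.32 CPM, edgeR adjusted p = 0.0406). Of 12 cell cycle genes 9 rose and none fell at 0.5% O2, with Mki67 at 82.9 against 9.43 CPM, and of 6 smooth muscle genes 4 fell and none rose, where 27.0% of all genes rose and 27.3% fell. All 3 osteocyte genes tested and 4 of 6 osteoblast genes rose there too. Their part in the levels of Dkk2, Dkk3, Sfrp1, Frzb, Wif1 and Notum was not tested.

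The 8 tested inhibitors were also counted by comparison. At 21% O2, 4 of 8 passed the filter in chondrocyte against proliferating cells and all 4 were called, with Sfrp1, Frzb and Wif1 higher and Dkk3 lower, where 74.9% of all 14360 genes tested were called. In osteoblast cultures 4 of 4 were called higher (Dkk3, Sfrp1, Frzb and Wif1), against 40.9% of all genes, and in smooth muscle 3 of 3 (Dkk3, Sfrp1 and Frzb), against 40.8%. At 0.5% O2, 4 of 4 were called in chondrocyte cultures, Frzb and Wif1 higher and Dkk3 and Sfrp1 lower, against 69.5% of genes. In hypoxic osteoblast cultures 3 of 4 were called higher (Dkk3, Frzb and Wif1, not Sfrp1), against 36.2%, and in hypoxic smooth muscle 2 of 2 were called lower (Dkk3 and Sfrp1), against 36.2% (70.6% with library-size scaling). Genes that pass the filter only through their high group had to differ, so these counts lend no support to a set-wide change.

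Between oxygen levels, both genes that passed the filter in proliferating cells rose at 0.5% O2 (Dkk3 and Sfrp1), where 33.1% of genes rose. In chondrocyte cultures 2 of 4 fell (Sfrp1 and Frzb), against 11.8% of genes, with Dkk3 and Wif1 not called. In osteoblast cultures 2 of 4 fell (Sfrp1 and Frzb), against 27.3%, and without replicate 4 all 4 were called, with Dkk3 lower and Wif1 higher, where 65.6% of all genes were called in either direction. In smooth muscle 4 of 4 fell (Dkk3, Sfrp1, Sfrp2 and Frzb), against 40.2%. With library-size scaling the same 4 were lower, where 72.6% of all genes were called lower. Sfrp2 and Frzb passed the filter there through the normoxic libraries, where they are high, so they had to differ. The change with differentiation could be compared between oxygen levels for Dkk3 and Sfrp1, which had enough counts in all 4 groups, and both were lower at 0.5% O2 in each culture, against 21.9% of genes for chondrocyte, 25.3% for osteoblast and 35.5% for smooth muscle (64.7% with library-size scaling). These comparisons share groups of libraries and are not independent of each other.

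**Figure D4:**
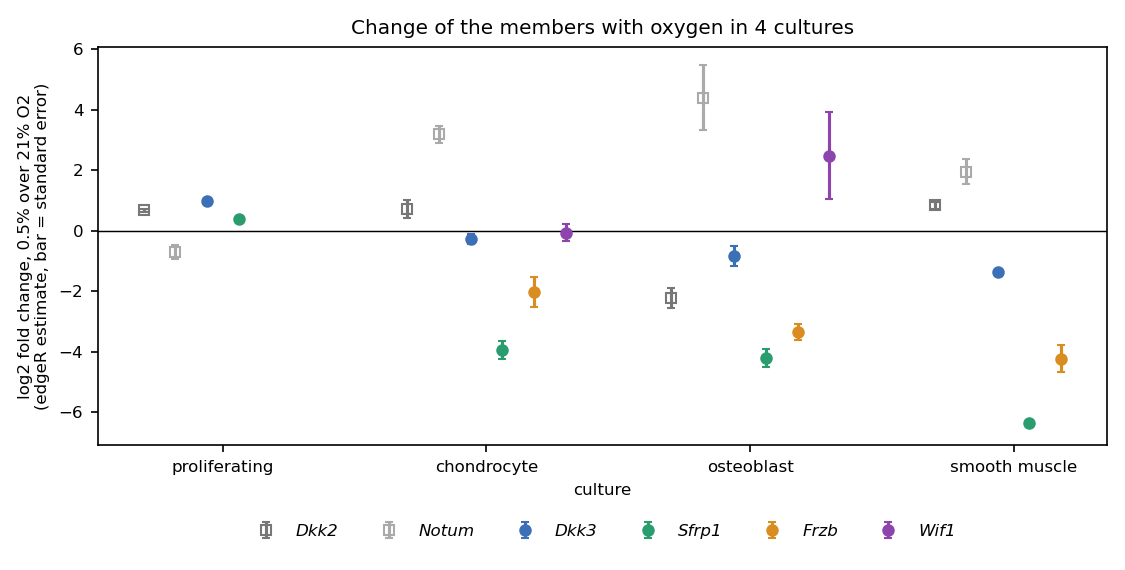
The vertical axis is the log2 fold change of 0.5% over 21% O2 with its standard error (edgeR), for the 4 culture states on the horizontal axis; filled circles are tested genes and open squares are Dkk2 and Notum, which are described only. Sfrp1 lies between -3.94 and -6.37 in the differentiated cultures and at 0.37 in proliferating cells; genes with under 10 counts in a group are left out.

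Other genes of the pathway were read from lists put together with earlier results of these data known. Of 16 Wnt receptors and co-receptors 15 passed the filter, and 12 rose and 1 fell in chondrocyte cultures at 21% O2, 13 rose and 2 fell in osteoblast, and 11 rose and 2 fell in smooth muscle cultures. Of all genes, 37.7%, 40.9% and 40.8% rose in these comparisons. Their median log2 changes were 1.46, 2.10 and 1.07, beside medians of 0.00, 0.07 and 0.03 over all genes. Lrp6, the co-receptor that Dkk proteins bind, rose from 78.7 ± 5.99 CPM (SD, n = 4) in normoxic proliferating cells to 212 ± 19.7 in chondrocyte, 414 ± 32.3 in osteoblast and 278 ± 14.1 in smooth muscle cultures (edgeR adjusted p = 8.92e-09, 7.98e-09 and 8.77e-13). Lrp5 rose in the same cultures, from 94.5 ± 5.65 CPM to 275 ± 51.1, 726 ± 92.4 and 185 ± 14.7 (adjusted p = 3.29e-07, 8.26e-09 and 1.55e-09). Lrp4, which presents sclerostin, rose from 0.565 ± 0.241 CPM to 82.8 ± 23.5, 40.6 ± 16.8 and 16.7 ± 2.26 (adjusted p = 1.71e-08, 3.12e-07 and 4.99e-12), while Sost itself stayed near 0.

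At 0.5% O2, Kremen1, the Dkk co-receptor, rose in proliferating cells (86.9 ± 1.62 against 38.9 ± 2.56 CPM, edgeR adjusted p = 1.19e-09), in chondrocyte cultures (269 ± 43.9 against 190 ± 7.94, adjusted p = 5.62e-03) and in osteoblast cultures (196 ± 22.7 against 95.002 ± 7.44, adjusted p = 3.44e-05). In smooth muscle it was called lower (log2 change -0.27, adjusted p = 0.0361, and -1.64 with library-size scaling), a call that was lost with DESeq2 (0.0713), with a replicate block (0.0993), and without normoxic replicate 1 or 4 or hypoxic replicate 2 or 3 (0.0511 to 0.104). Lrp5 rose with low oxygen in proliferating cells (log2 change 1.53, adjusted p = 4.02e-11) and fell by 0.45 in osteoblast cultures (adjusted p = 0.0107). In smooth muscle Lrp5 was called lower (adjusted p = 5.39e-05, and -1.94 with library-size scaling). Lrp6 was called lower in osteoblast (adjusted p = 1.35e-04, and -0.89 without normoxic replicate 4) and smooth muscle cultures (2.92e-12, and -4.08 with library-size scaling). It was not called in chondrocyte cultures (0.168). Of the 15 receptors tested, 4 rose and 4 fell in proliferating cells at 0.5% O2, where 33.1% of all genes rose and 32.3% fell. Over 12 alternatives the number that fell there was 2 to 5, with 2 when all 8 groups entered 1 fit, in which Fzd9 and Ryk were lost (adjusted p = 0.0771 and 0.0526). In chondrocyte cultures 2 rose and 3 fell (10.4% and 11.8% of all genes), with 2 to 3 and 2 to 5 over the alternatives. In osteoblast cultures 3 rose and 7 fell (27.0% and 27.3%), and without normoxic replicate 4 Fzd9 and Ror1 were called higher too, so that 5 rose and 7 fell (32.9% and 32.7%). In smooth muscle 3 rose and 10 fell (35.4% and 40.2%), and with library-size scaling 0 rose and 14 fell (13.4% and 72.6%). Of 12 target genes and feedback inhibitors of the pathway, 9 were tested in osteoblast cultures between oxygen levels, of which 4 fell and 1 (Znrf3) rose, where 27.3% of all genes fell and 27.0% rose. Axin2 was among these, at 0.942 ± 0.452 against 2.62 ± 0.851 CPM (log2 change -1.47, SE 0.40, adjusted p = 0.0127), with Nkd1 and Nkd2, both intracellular feedback inhibitors (-2.02 and -2.03, adjusted p = 1.74e-04 and 5.89e-07) and Tnfrsf19 (-3.15, adjusted p = 1.15e-03). Without replicate 4 of the normoxic group these 5 calls held, and Tcf7, Bambi and Rnf43 were called higher as well (log2 changes 2.31, 1.03 and 0.87, adjusted p = 6.85e-09, 1.50e-07 and 0.0497), so that 4 fell and 4 rose (32.7% and 32.9% of all genes). The Znrf3 call was lost with library-size scaling (adjusted p = 0.0557) and without hypoxic osteoblast replicate 1 (0.0530) or replicate 2 (0.0602). In chondrocyte cultures 5 of 8 fell and none rose, where 11.8% of all genes fell, Nkd1 most (log2 change -3.63, SE 0.24, adjusted p = 2.21e-06), while Axin2 was not called (-0.38, SE 0.44, adjusted p = 0.600). Over 12 alternatives 3 to 5 fell there, with 3 when all 8 groups entered 1 fit (Lef1 and Bambi lost, adjusted p = 0.160 and 0.488), and Lef1 was also lost without normoxic chondrocyte replicate 1 or 2 or any 1 of the hypoxic replicates (0.0597 to 0.127). In proliferating cells 5 of 6 targets fell at 0.5% O2 and none rose, where 32.3% of all genes fell (4 to 6 fell over the alternatives). In smooth muscle 5 of 8 fell and 1 rose (40.2% and 35.4%), with Axin2 among those called lower (edgeR adjusted p = 1.03e-04). With library-size scaling 7 fell and 0 rose there (72.6% and 13.4%).

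Among 19 Wnt genes, Wnt5a, a ligand known mainly for signalling without beta-catenin, fell in hypoxic osteoblast cultures, to 48.5 ± 7.33 from 203 ± 62.5 CPM (log2 change -2.06, SE 0.28, edgeR adjusted p = 4.61e-04), while Wnt4 rose there, to 103 ± 13.4 from 26.0 ± 10.9 CPM (2.00, SE 0.28, adjusted p = 6.40e-04). Wnt5a also fell in smooth muscle, to 11.1 from 161 CPM (-3.73, adjusted p = 3.06e-13, and -5.10 with library-size scaling). In chondrocyte cultures it rose, to 139 from 107 CPM (0.36, adjusted p = 2.74e-03), a call that was lost with all 8 groups in 1 fit (0.125). In proliferating cells it stood at 39.4 against 33.7 CPM (0.22, adjusted p = 0.0265), a call that was lost in 6 alternatives. Of the ligands tested at 0.5% O2, 2 of 7 rose and 2 fell in osteoblast cultures (27.0% and 27.3% of all genes). In chondrocyte cultures 4 of 7 rose and 2 fell (10.4% and 11.8%). In smooth muscle 2 of 7 rose and 5 fell (35.4% and 40.2%, and 13.4% and 72.6% with library-size scaling), and in proliferating cells 5 of 5 rose (33.1%). Over the alternatives the number that rose in these cultures, in the order given, was 1 to 3, 2 to 4, 2 to 4 and 3 to 6. Of 11 partners of these steps (Kremen and Lrp4, the R-spondins and their receptors, and proteins of Wnt secretion), 5 of 8 tested fell and 2 rose in osteoblast cultures at 0.5% O2, where 27.3% of all genes fell and 27.0% rose. Over the alternatives 4 to 6 fell and 2 to 3 rose, and Lrp4 was called higher without normoxic replicate 4 (log2 change 0.38, adjusted p = 6.79e-03). In proliferating cells 3 of 6 partners rose and none fell, where 33.1% of all genes rose and 32.3% fell. In chondrocyte cultures 1 of 9 rose and 1 fell, against 10.4% and 11.8% (0 to 3 fell over the alternatives). In smooth muscle 1 of 8 rose and 6 fell, against 35.4% and 40.2% (5 to 7 fell over the alternatives). With library-size scaling 0 rose and 7 fell in smooth muscle, against 13.4% and 72.6%. In osteoblast cultures Rspo2, an R-spondin that enhances Wnt signalling, fell most of these partners, to 0.589 ± 0.0766 from 11.8 ± 0.601 CPM (edgeR adjusted p = 2.18e-07). Without normoxic osteoblast replicate 4 the osteoblast log2 changes of Wnt5a, Wnt4, Rspo2 and Lrp5 were -2.27, 2.34, -4.31 and -0.54, and all 4 calls held. Of 7 further secreted inhibitors (Dkk4, Dkkl1, Sfrp5, Sostdc1, Cer1, Igfbp4 and Draxin), at most 2 passed the filter in any comparison. Draxin, which also binds Lrp6, stood at 14.7 ± 3.46 CPM in hypoxic osteoblast against 1.82 ± 2.64 CPM in normoxic osteoblast cultures (adjusted p = 0.0267). This call was lost without the filter (adjusted p = 0.0866) and without normoxic replicate 2, normoxic replicate 3 or hypoxic replicate 2 (0.0571, 0.0572 and 0.0601), and without normoxic replicate 4 the log2 change went from 2.99 to 4.88 (adjusted p = 4.38e-09).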

How the data were processed

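The authors deposited raw counts of reads per gene for the 28 libraries, and per the submitters' processing notes the builds and tools named are mm10, HISAT2 2.0.5, StringTie 1.3.3b and featureCounts 1.5.0-p3, with no role or order given. The strand setting of the counting is not given in the sources used here. Of the deposited tables, 70 columns of normalised values were not used. The authors' deposited tables of log2 fold changes were set beside 45 of the values computed here, all 45 had the same sign, and the median absolute difference was 0.0223. The largest was 1.86, for Wif1 between oxygen levels in osteoblast cultures (0.63 in the authors' deposited table, 2.49 here), and for Notum there the values were 3.88 in the authors' deposited table and 4.41 here.

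Each pair of groups was fitted with edgeR 4.0.16 (R 4.3.3, limma 3.58.1): TMM scaling, filterByExpr on low counts, quasi-likelihood test and Benjamini-Hochberg adjustment over all genes tested, with a threshold of 0.05. The change with differentiation was compared between oxygen levels in fits over 4 groups. Levels use TMM over all 28 libraries. A fitted fold change is given where each group has at least 10 counts, a rule chosen after seeing the data. Otherwise a counting ratio with an exact 95% interval is given, or a bound against a floor of 3 counts over the group, and both cover counting error only. Exon lengths and positions are from GENCODE vM21 (GRCm38). Of 54429 genes, 20019 took their symbol from the deposited tables, 34311 from the reference table and 99 had none. The fits were tested on simulated counts.

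The members and lists were chosen with earlier results of these data known. Genes named as most like Dkk2 and Notum are the 5 with the highest Pearson r. Pathway genes are named for their role or as the largest change in their list, and Tcf7, Bambi, Rnf43, Znrf3, Lef1, Fzd9, Ror1, Ryk, Nkd2, Lrp5 and Lrp6 were chosen after their values were seen. Alternatives were library-size scaling, no filter, all 8 groups in one fit, a replicate block, DESeq2 1.42.0 and leaving out each library. They were read for the pathway genes too, a step chosen after seeing the data. No 2 libraries agreed within sampling noise.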

Additional observations from a re-analysis of the deposited data

Results flagged for a closer look

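Among 27 gene-by-group sets of 4 libraries, 7 held a library whose gap to the others passed Dixon's 95% critical value, where chance gives about 1 in 20. Replicate 4 of normoxic osteoblast accounted for 5 of them: Dkk3 at 301 CPM, Sfrp1 at 149.9 CPM, Wif1 at 46.5 CPM, Notum at 22.8 CPM and Sost at 0.455 CPM. The other 2 were Dkk2 in normoxic proliferating replicate 4, at 650.4 CPM, and Dkk3 in normoxic smooth muscle replicate 4, at 312 CPM.

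The change of Dkk3 from proliferating to differentiated cells differed between oxygen levels by a log2 value of -1.27 in chondrocyte, -1.79 in osteoblast and -2.33 in smooth muscle cultures (edgeR interaction test). For Sfrp1 the differences were -4.30, -4.54 and -6.71. For the genes selected on their counts, the differences were not tested: -2.86 for Dkk2 in osteoblast cultures, and 3.91, 5.13 and 2.69 for Notum in chondrocyte, osteoblast and smooth muscle cultures. For Notum the osteoblast value was 7.17 without normoxic osteoblast replicate 4, and the smooth muscle value was 1.36 with library-size scaling.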

How the results depend on the processing

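Of 885 values of members under an alternative, 836 kept their direction and side of the threshold (or, where untested, their value), 13 lost and 10 gained a call, 12 untested values moved and 14 reversed. With library-size scaling Dkk2 reversed in hypoxic against normoxic smooth muscle (-0.53) and in the difference between oxygen levels of its smooth muscle change (-1.14), and Notum in hypoxic smooth muscle against hypoxic proliferating cells (-1.05). Leaving out 1 library gave a range of log2 values on both sides of 0 for Notum in normoxic chondrocyte cultures (-0.36 to 0.0746), Wif1 between oxygen levels in chondrocyte cultures (-0.24 to 0.11) and the chondrocyte difference of Dkk2 (-0.13 to 0.23). For Notum in normoxic osteoblast against proliferating cells the range was -1.41 (without normoxic osteoblast replicate 4) to 0.99, and with a replicate block the value was -0.40.

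Of 354 counts of calls, 342 stayed within 1.5 times. Members called between oxygen levels were 1 in proliferating cells with all 8 groups in one fit, 1 in chondrocyte cultures without a filter, and 4 in osteoblast cultures with all groups in one fit or with the replicate block. Leaving out 1 library gave 1 to 2 members in proliferating and chondrocyte cultures and 2 to 4 in osteoblast cultures, and 2091 to 3359 genes called in chondrocyte cultures. Replicate numbers did not pair the samples: deviations of same-numbered libraries correlated at -0.161 to 0.108, and in 0 of 10 comparisons was every pair above 0.1. Between oxygen levels the replicate block drops replicate 4 of the normoxic group. The causes were not tested. Depth limits Dkk1, Sost, Sfrp2 and Sfrp4.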
